A study of Sorghum bicolor with 18 samples.

Results

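The RNA of first axillary buds of Sorghum bicolor, cultivar 100M, was compared between 3 h and 1 h after the leaf covering them had been taken away. The members are the 3 libraries labelled as leaf-removed at 3 h and the 3 labelled as leaf-removed at 1 h, chosen by label and read as total exon reads per gene, 6 of the 18 libraries of the study. The comparison asks which RNAs of treated buds were lower and which were higher in the third hour than in the first. Treated plants, 7 days after sowing, had the whole coleoptile and first leaf peeled from the culm, which left the bud of the first leaf axil exposed and untouched. Intact plants of the same cultivar and age kept both, and their buds at 1 h and 3 h, 3 libraries each, are set beside the treated ones. The remaining 6 libraries are leaf-removed and intact buds at 6 h. All plants shared a photoperiod of 16 h light and 8 h dark. A library is a pool of 15 buds, and of 4 pools prepared per group the 3 with the best RNA were sequenced. Replicates are thus pools of buds, and p-values measure the spread between pools. In whole buds, fewer cells of a type and less RNA per cell cannot be told apart.

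An axillary bud is a small shoot with its own meristem that either grows into a branch or stays dormant. Abscisic acid and the transcription factor BRANCHED1 are known to hold buds back, while cytokinin, sugar supply and light favour their outgrowth, and dormancy-associated transcripts are widely used as markers of buds that do not grow. Wounding a grass leaf sets off calcium and jasmonate signals within minutes, and renewed growth needs new ribosomes, DNA replication in S phase and then mitosis. Genes carry the name of their Arabidopsis match in the deposited annotation, and roles are those known in Arabidopsis unless said otherwise.

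Libraries of the 6 treated pools held 24.4 to 30.8 M (1e6) exon reads. Leaf-removed 1 h replicate d and 3 h replicate b stood apart from their groups. In a principal component analysis, component 1 (46.7% of the variance) placed the 1 h libraries b, c and d at 143.8, 150.5 and 115.5 and the 3 h libraries at 22.0, 58.8 and 76.56. Component 2 (18.4%) placed them at -54.53, -56.52 and -15.01, and at 88.7, 16.9 and 11.17. Both libraries also had the highest share of intron reads in their group, 4.65% and 5.255% of gene reads, where the others had 3.122% to 3.804%. They belong to 5 libraries of the study that deviate from their groups alike, the others being intact 1 h c, intact 6 h d and leaf-removed 6 h d. List counts are also given without those 5 below, where 1 h b and c are compared with 3 h c and d. The 5 were picked because they deviate, so leaving them out narrows the spread and tends to raise the counts. A library left out is named by its hour and letter, as in 1 h c, where a list's count then moved by over 1.5 times. Meristem genes were detected, as the bud label implies. A KNOTTED-like homeobox gene (BP, Sobic.001G106200), of a family that marks shoot meristems, stood at 12.5 RPKM at 1 h and 21.4 RPKM at 3 h, and the adaxial fate factor REV (Sobic.001G537300) at 21.5 and 42.1 RPKM. Green tissue was present too, since the small subunit of Rubisco (RBCS1A, Sobic.005G042000) stood at 363 and 573 RPKM. These RPKM were not scaled by the factors used in the test, and the tested changes of BP, REV and RBCS1A are given below. BP and RBCS1A were chosen as markers after their values were seen.

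**Figure D1:**
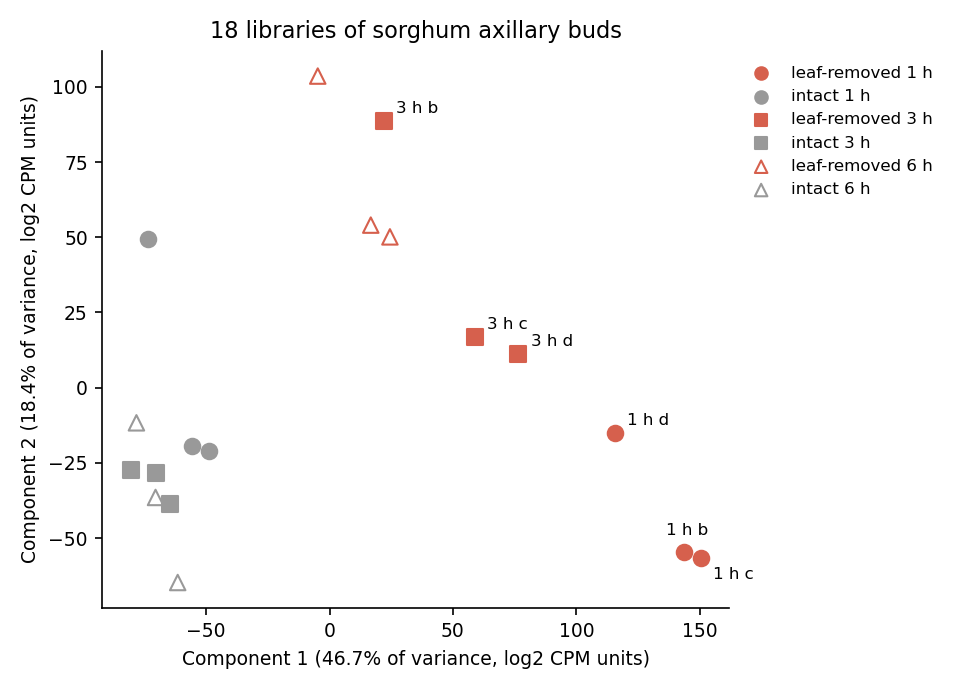
Principal components of log2 CPM (counts per 1e6 reads) of the 18 libraries, component 1 on the x axis and component 2 on the y axis, with each point 1 library, red for leaf-removed and grey for intact buds. The leaf-removed 1 h libraries lie at 115.5 to 150.5 on component 1 and the 3 h libraries at 22.0 to 76.56, between them and the intact libraries.

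Between 1 h and 3 h, 3872 of 21852 tested genes rose (17.7%) and 4246 fell (19.4%) in leaf-removed buds by edgeR's quasi-likelihood test, called at a Benjamini-Hochberg adjusted p below 0.05. The fall was steeper than the rise at the extremes, since 365 called genes fell at least 8-fold and 85 rose that much. At 2-fold and more the counts were 2099 and 1613. The median log2 change of all tested genes was -0.03. Without the 5 libraries, 4676 genes rose and 5290 fell. When reads were scaled by library totals alone, the median over all genes moved up by 0.14 and 60.0% of the calls were rises, against 47.7% with TMM. The 3 values at 1 h and the 3 at 3 h did not overlap in 95.6% of the genes that rose and 96.6% of those that fell. A call largely requires such separation, and the share over all tested genes was not computed, so these shares are no separate support. Values written with ± below are log2 fold changes of 3 h over 1 h in leaf-removed buds (3 libraries against 3) with a standard error. That error is the size of the change divided by the square root of the test's F statistic. Its spread was estimated over all 18 libraries, and it is only approximate for genes near 0 in a group. CPM are given in the order of replicates b, c and d. Adjusted p come from edgeR's quasi-likelihood test with Benjamini-Hochberg adjustment over all tested genes.

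Far fewer genes were called in intact buds over the same hours, with 668 genes higher (3.06%) and 796 lower (3.64%) at 3 h. Of the intact buds' lower genes, 354 (44.5%) rose in leaf-removed buds, where they made up 9.14% of the rises, and 162 (20.4%) fell, 3.82% of the falls. Of the intact buds' higher genes, 191 (28.6%) rose in leaf-removed buds, 4.93% of the rises, and 176 (26.3%) fell, 4.15% of the falls. The change itself differed between leaf-removed and intact buds for 5820 genes, 2934 with a more positive change in leaf-removed buds (13.4%) and 2886 with a more negative one (13.2%). Where a group of genes is given below with no call in a direction in exon reads of leaf-removed buds, DESeq2 and limma voom called 0 members too, and 0 reached an unadjusted p under 0.05. The exceptions to the latter were 1 abscisic acid receptor and 1 isopentenyltransferase that were higher. For such counts in intact buds, 0 to 9 members of a list reached an unadjusted p under 0.05 in that direction, with the 9 among WRKY factors, and DESeq2 called 0 to 3 and limma voom 0 to 2. How the gene groups moved is drawn in the plot of changes by list. Counts of list members in leaf-removed buds are to be read against 17.7% higher and 19.4% lower over all genes.

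**Figure D2:**
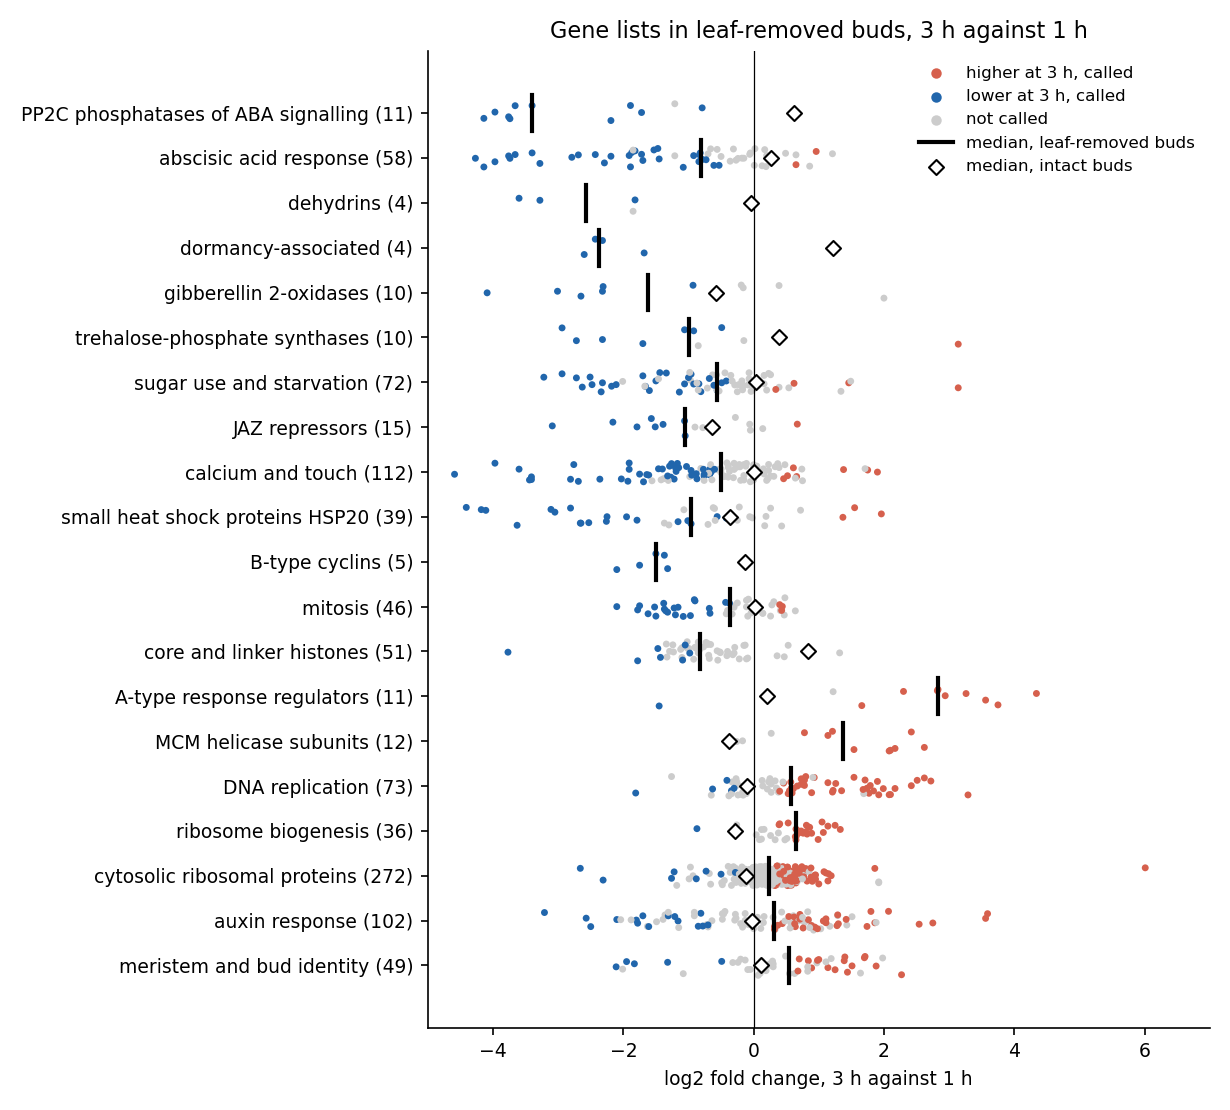
Log2 fold change of 3 h over 1 h in leaf-removed buds (x axis) for the members of 20 gene lists (y axis, number tested in parentheses). Each point is 1 gene, red where it rose, blue where it fell and grey where it was not called, the bar is the list's median and the open diamond its median in intact buds. The 11 PP2C phosphatases lie lowest, with a median of -3.40, and the 11 A-type response regulators highest, with a median of 2.83.

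The steepest rises were led by transcription factors and by genes of cytokinin, sulfur and chromatin. Genes named for the steepest rises and falls, here and below, were kept only where the groups did not overlap. Separation of their libraries is thus no support for them. A Dof zinc finger factor (Sobic.001G166200) stood at 0.196, 0.29 and 0.221 CPM at 1 h and 1.81, 8.57 and 9.86 CPM at 3 h. It was near 0 in all 1 h libraries and rose in all 3 h libraries, by 4.83 ± 0.98 (adjusted p = 0.0011); 80.4% of its reads were unique, and its adjusted p reached 0.059 with limma voom, where its range over the alternatives was 3.7e-08 to 0.059. A basic helix-loop-helix factor (Sobic.001G488400) had 2.83, 2.22 and 0.775 CPM at 1 h and 40.6, 54.6 and 53.0 CPM at 3 h. Its groups were far apart, and the rise was 4.68 ± 0.42 (adjusted p = 5.2e-07). An AP2/ERF factor (Sobic.010G063900) rose by 4.44 ± 0.34, from 0.825, 1.54 and 0.664 CPM at 1 h to 18.4, 22.5 and 24.1 CPM at 3 h. EGL3 (Sobic.006G175500), a helix-loop-helix factor of pigment and trichome formation, was at 0.472, 0.434 and 0.295 CPM at 1 h and 4.62, 5.33 and 6.35 CPM at 3 h, a rise of 3.75 ± 0.35. Its level was low in intact buds at every time, 0.632, 0.369 and 0.253 CPM on average at 1, 3 and 6 h, and 5.63 CPM in leaf-removed buds at 6 h.

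APR3 (Sobic.002G314300), which reduces activated sulfate on the way to cysteine, had 6.64, 8.78 and 9.67 CPM at 1 h and 129, 134 and 141 CPM at 3 h. All 3 h libraries lay more than 10-fold above all 1 h libraries, and the rise was 4.01 ± 0.51 (adjusted p = 1.5e-05). In intact buds it averaged 20.0 CPM at 1 h and 35.4 CPM at 3 h, and it was back at 27.8 CPM in leaf-removed buds at 6 h. A protein of unknown function (Sobic.001G121700) rose by 4.35 ± 0.49 and a P-loop hydrolase (Sobic.002G210100) by 3.79 ± 0.62. A RING finger gene (Sobic.010G023600) was at 6.76, 7.38 and 8.01 CPM at 1 h and 17.3, 237 and 16.2 CPM at 3 h. A single library set its rise of 3.61 ± 0.83, since without 3 h replicate c the change was 1.24 (adjusted p = 0.045, with a range over the alternatives of 0.00051 to 0.047).

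The steepest falls took genes that were abundant at 1 h to near 0 at 3 h. RGLG1 (Sobic.002G131800), a RING ubiquitin ligase, went from 43.1, 42.1 and 21.7 CPM at 1 h to 0.226, 0.149 and 0.529 CPM at 3 h, a change of -6.88 ± 0.65 (adjusted p = 9.7e-07). A terpene synthase (TPS21, Sobic.007G064800) had 16.8, 15.0 and 7.49 CPM at 1 h and 0.0, 0.186 and 0.189 CPM at 3 h and fell by 6.71 ± 0.74 on the log2 scale. Both were almost silent in intact buds, at 0.329 and 0.00918 CPM at 1 h, and for neither did the difference from the change in intact buds pass the test. Pyruvate decarboxylase (Sobic.009G169000), the entry step of ethanol fermentation, had 107, 112 and 24.9 CPM at 1 h and 0.291, 1.71 and 3.02 CPM at 3 h. Its 1 h replicate d was the lowest of its group and its 3 h replicate b the lowest of the other, and the change was -5.62 ± 0.78. BT2 (Sobic.006G124000), a BTB/TAZ scaffold protein that responds to nitrogen and sugar, went from 70.6, 104 and 53.0 CPM at 1 h to 0.905, 1.86 and 2.31 CPM at 3 h (-5.49 ± 0.49, adjusted p = 4.7e-07).

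The remaining genes with the steepest falls were a DUF584 protein (Sobic.004G221900, -5.99 ± 0.58), the glutathione transferase GSTU17 (Sobic.001G318700, -5.49 ± 0.66) and an alpha/beta-hydrolase (Sobic.003G370600, -5.31 ± 0.45). With them were the metal efflux protein PCR2 (Sobic.001G024500, -5.16 ± 0.53), the stress tolerance protein OXS3 (Sobic.006G191600, -5.13 ± 0.46) and a homeodomain-like factor (Sobic.003G064200, -5.13 ± 0.68). The 1 h and 3 h libraries did not overlap for any of these 6 genes, as the rule that chose them required. Their mean levels in intact buds at 1 h lay between 0 and 9.19 CPM. Leaving out a single library moved 5 of the 12 steepest falls by over 1.5 times, to -5.65 for ATHB-7 without 3 h replicate b, to -7.52 for RGLG1 without 3 h replicate d, to -6.02 for TPS21 without 3 h replicate b, to -6.37 for pyruvate decarboxylase and -5.74 for the homeodomain-like factor without 3 h replicate d.

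Transcripts of the abscisic acid response fell far more often than they rose. Of 58 tested genes of the response, 2 rose and 32 fell, with a median change of -0.82, beside 17.7% higher, 19.4% lower and a median of -0.03 over all genes. The counts were 4 higher and 32 lower without the 5 libraries and 3 higher and 0 lower in intact buds, and for leaf-removed buds 4 higher without 3 h b. Of 11 tested PP2C phosphatases, which switch abscisic acid signalling off and are themselves induced by the hormone, 10 fell and 0 rose, with a median of -3.40 (0 higher and 10 lower without the 5 libraries). HAB1 (Sobic.009G213000), a phosphatase of this group, was at 162, 171 and 157 CPM at 1 h and 13.2, 14.8 and 18.4 CPM at 3 h. The groups were more than 8-fold apart in every library, and HAB1 fell to 9.47% of its 1 h level (-3.40 ± 0.17, adjusted p = 6e-09), while it averaged 21.9 CPM at 1 h and 35.7 CPM at 3 h in intact buds. A second HAB1 gene (Sobic.003G198200) had 98.8, 104 and 99.9 CPM at 1 h and 29.5, 28.9 and 33.7 CPM at 3 h. Its change was smaller, -1.72 ± 0.10, with all 3 libraries of each time close together. HAI3 (Sobic.002G172000), also of this group, fell from 14.2, 13.7 and 7.71 CPM at 1 h to 0.582, 0.782 and 0.642 CPM at 3 h (-4.14 ± 0.37).

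Dehydrins, which protect proteins and membranes in drying cells, included abundant transcripts that fell. Of 4 tested, 3 fell and none rose, with 0 higher and 3 lower without the 5 libraries and 0 higher and 0 lower in intact buds. A dehydrin (Sobic.001G149500) had 2990, 3240 and 2170 CPM at 1 h and 249, 287 and 330 CPM at 3 h, and averaged 59.4 CPM at 1 h and 44.7 CPM at 3 h in intact buds. It fell in every library, to 10.3% of its 1 h level (-3.28 ± 0.23, adjusted p = 6.4e-08), but was still above intact buds at 6 h, with 165 against 36.0 CPM. COR47 (Sobic.004G286600) went from 1850, 1670 and 824 CPM at 1 h to 49.9, 143 and 165 CPM at 3 h, a change of -3.60 ± 0.52. The 3 h mean of 119 CPM lay near that of intact buds at 3 h, 114 CPM. XERO1 (Sobic.009G116700) changed by less, -1.82 ± 0.52 (adjusted p = 0.011), and this call was lost without 3 h replicate b (adjusted p up to 0.076 and down to 0.00029 over the alternatives). ATHB-7 (Sobic.004G300300), a homeodomain factor induced by abscisic acid, had 96.0, 82.3 and 45.1 CPM at 1 h and 0.0323, 1.6 and 1.21 CPM at 3 h, a change of -6.32 ± 0.79, or -5.65 without 3 h replicate b, the lowest library.

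The receptor PYL8 (Sobic.009G080200) fell as well, with a change of -1.91 ± 0.19, and of 12 abscisic acid receptors 5 fell and none rose, with 2 higher and 5 lower without the 5 libraries and 0 higher and 0 lower in intact buds, and for leaf-removed buds 2 higher without 3 h b. The only 2 members of the response list that rose included ABF2 (Sobic.010G081800), a bZIP factor that binds abscisic acid response elements (0.65 ± 0.18). Of 12 tested genes of the hormone’s synthesis and breakdown, 2 rose and 6 fell, with a median change of -0.85, with 2 higher and 6 lower without the 5 libraries and 3 higher and 0 lower in intact buds, and for leaf-removed buds 1 higher without 1 h c, 1 h d or 3 h d. ZEP (Sobic.006G097500), an early enzyme of synthesis, had 108, 110 and 104 CPM at 1 h and 70.3, 63.9 and 60.4 CPM at 3 h and changed by -0.73 ± 0.12. NCED9 (Sobic.001G155300), of the family that cleaves carotenoids in the committed step, was at 13.1, 8.73 and 4.58 CPM at 1 h and 0.162, 1.83 and 2.04 CPM at 3 h. It fell by 2.72 ± 0.72 on the log2 scale (adjusted p = 0.0072, where the range over the alternatives was 1.6e-05 to 0.063), or by 2.12 without 3 h replicate b, whose value was the lowest. A second NCED9 gene (Sobic.002G037400) was hardly detected, at 0.786, 1.21 and 0.221 CPM at 1 h and 0.0, 0.0745 and 0.0 CPM at 3 h, and changed by -4.70 ± 1.24, with -4.11 without 1 h replicate c, -4.06 without 3 h replicate b and -7.35 without 3 h replicate c.

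CYP707A enzymes inactivate abscisic acid, and the 3 annotated genes differed. CYP707A4 (Sobic.002G225400) was at 132, 141 and 140 CPM at 1 h and 29.1, 29.7 and 44.9 CPM at 3 h, with no overlap, a change of -1.99 ± 0.24 (adjusted p = 1.1e-05). Even after it, the 3 h mean of 34.6 CPM was above the 8.36 CPM of intact buds. CYP707A1 (Sobic.004G268700) rose from 4.76, 5.55 and 3.36 CPM at 1 h to 15.0, 25.2 and 33.1 CPM at 3 h, by 2.43 ± 0.35. Intact buds showed a rise of 2.02 ± 0.34, and the 2 changes did not differ by test (adjusted p = 0.58, a difference of 0.40 ± 0.48). The second CYP707A4 gene (Sobic.007G156300) changed by -0.97 ± 0.53 and did not pass the test (adjusted p = 0.17). Of the related carotenoid cleavage genes matched by the same words, CCD4 (Sobic.004G268500) rose by 2.23 ± 0.68. Its call was lost without 1 h replicate c, 1 h replicate d or 3 h replicate d, with adjusted p up to 0.11. The 2 CCD1 genes (Sobic.001G509200 and Sobic.010G050300) changed by 0.22 ± 0.25 and -0.48 ± 0.48, neither of which passed.

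All 4 genes annotated dormancy-associated fell in leaf-removed buds, while 3 of the 4 rose in intact buds over the same hours. The most abundant of them per length (Sobic.001G191200) had 232, 227 and 171 CPM at 1 h and 26.4, 34.2 and 43.1 CPM at 3 h. Its 3 h libraries did not overlap the 1 h libraries, and the fall was to 16.5% of the 1 h level (-2.60 ± 0.29, adjusted p = 4.2e-06). In intact buds it averaged 87.1 CPM at 1 h and 239 CPM at 3 h, a rise of 1.45 ± 0.28. The other members changed by -2.43 ± 0.27 (Sobic.001G377000), -1.68 ± 0.22 (Sobic.007G148200) and -2.32 ± 0.34 (Sobic.002G213800). At 6 h the first was at 45.2 CPM in leaf-removed and 258 CPM in intact buds. All 4 also fell without the 5 libraries.

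BRANCHED1, the TCP factor that integrates signals against branching, went the other way. The gene annotated BRC1 (Sobic.002G198400) was at 3.42, 3.19 and 2.95 CPM at 1 h and 7.14, 7.71 and 6.54 CPM at 3 h, low but without overlap, and rose 2.24-fold (1.16 ± 0.18, adjusted p = 0.00013). Intact buds averaged 6.78 CPM at 1 h and 7.68 CPM at 3 h, so that the 3 h level of leaf-removed buds, 7.13 CPM, lay beside that of intact buds. The second BRC1 gene (Sobic.007G135700) had 1.53, 2.32 and 1.62 CPM at 1 h and 0.323, 0.894 and 1.66 CPM at 3 h, with overlapping groups, and did not pass the test (-0.93 ± 0.57, or -1.58 without 3 h replicate d, which did not pass either). MAX2 (Sobic.010G043000), the F-box protein of strigolactone signalling, fell by 0.68 ± 0.15 on the log2 scale. CYP711A1 (Sobic.010G170400), an enzyme of strigolactone synthesis, rose from 0.157, 0.338 and 0.111 CPM at 1 h to 1.1, 1.94 and 2.34 CPM at 3 h (3.17 ± 0.46, or 3.76 without 1 h replicate c). TCP4 (Sobic.003G018700), a TCP factor of leaf growth and differentiation, rose from 44.1, 43.9 and 49.4 CPM at 1 h to 137, 232 and 248 CPM at 3 h (2.16 ± 0.25).

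Leaf and meristem identity genes rose more often than they fell. Of 49 tested genes, 16 rose and 5 fell, with a median change of 0.55, with 19 higher and 7 lower without the 5 libraries and 2 higher and 1 lower in intact buds. AS2 (Sobic.003G383700), a leaf polarity factor, had 3.77, 4.68 and 5.06 CPM at 1 h and 16.4, 15.2 and 18.3 CPM at 3 h. No library overlapped, and the rise was 1.88 ± 0.21 (adjusted p = 5.7e-06). REV rose by 0.84 ± 0.10, whereas BP, with 0.63 ± 0.26, did not pass the test. BLH6 (Sobic.001G494000), a BEL1-like homeodomain factor, fell from 46.8, 52.2 and 30.7 CPM at 1 h to 8.66, 8.68 and 12.7 CPM at 3 h (-2.11 ± 0.33).

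Cytokinin response genes rose from a low level at 1 h. A-type response regulators are switched on directly by cytokinin, and of 11 tested 9 rose and 1 fell, with a median of 2.83 (9 higher and 1 lower without the 5 libraries, 0 higher and 0 lower in intact buds). ARR3 (Sobic.004G178000) was at 2.28, 2.51 and 1.73 CPM at 1 h and 41.2, 47.3 and 43.5 CPM at 3 h. Every 3 h library lay far above every 1 h library, where the rule that chose ARR3 already required no overlap, and the rise was 4.34 ± 0.33 (adjusted p = 1.1e-07). Intact buds held a level near that of treated buds at 3 h throughout, with 31.4 CPM at 1 h and 31.4 CPM at 3 h. ARR6 (Sobic.006G263300) rose from 16.5, 21.9 and 14.4 CPM at 1 h to 92.8, 124 and 156 CPM at 3 h (2.82 ± 0.26), beyond the 52.7 CPM of intact buds at 3 h, and was at 31.7 CPM at 6 h. ARR4 (Sobic.004G223100) rose by 3.75 ± 0.49, or by 4.70 without 1 h replicate b, and a second ARR3 gene (Sobic.006G090400) by 2.30 ± 0.19. The third ARR3 gene (Sobic.004G356800) was the member that fell, from 44.5, 50.5 and 37.9 CPM at 1 h to 20.6, 15.6 and 12.3 CPM at 3 h (-1.45 ± 0.21). ARR12 (Sobic.010G064700), a B-type regulator that activates cytokinin target genes, rose from 8.53, 10.2 and 9.23 CPM at 1 h to 64.4, 51.0 and 60.0 CPM at 3 h (2.65 ± 0.17, adjusted p = 3.2e-08).

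Cytokinin oxidases, which degrade the hormone, rose in 3 of 6 tested genes and fell in none, with 4 higher and 0 lower without the 5 libraries and 1 higher and 0 lower in intact buds. CKX6 (Sobic.001G215600) was at 3.69, 6.32 and 2.8 CPM at 1 h and 38.5, 58.3 and 61.5 CPM at 3 h, with no overlap by the rule that chose it, and rose by 3.64 ± 0.36. It also rose in intact buds, by 1.28 ± 0.32, and the rise was larger in leaf-removed buds by 2.36 ± 0.47 (adjusted p = 0.0014). CKX1 (Sobic.003G421100) rose from 1.14, 1.64 and 1.4 CPM at 1 h to 5.95, 4.13 and 4.08 CPM at 3 h (1.77 ± 0.22). Its level stayed far below that of intact buds, 40.7 CPM at 1 h and 28.8 CPM at 3 h, and was 1.74 CPM at 6 h. The second CKX6 gene (Sobic.006G151500) rose by 2.11 ± 0.41. CKX5 (Sobic.003G313800), CKX7 (Sobic.007G151400) and the second CKX1 gene (Sobic.009G118700) changed by -0.58 ± 0.42, 1.01 ± 0.56 and 0.37 ± 0.51, and none of these passed the test. IPT5 (Sobic.001G042901), of the isopentenyltransferase family that makes cytokinin, fell from 2.24, 2.94 and 1.85 CPM at 1 h to 0.259, 0.186 and 0.302 CPM at 3 h (-3.21 ± 0.60). It was the only call among 5 tested members, 0 higher and 1 lower, beside 17.7% and 19.4% over all genes. The family's median change was 0.33 and its highest 2.31. The counts were 1 higher and 1 lower without the 5 libraries, and 1 higher without 1 h b.

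Genes of DNA replication rose more often than they fell. Of 73 tested genes, 40 rose and 5 fell, with a median change of 0.58, with 38 higher and 4 lower without the 5 libraries and 0 higher and 11 lower in intact buds, and for leaf-removed buds 2 to 3 lower without intact 1 h b, intact 1 h d, intact 3 h b, 1 h b, 1 h c, 1 h d, 3 h c or 3 h d. Of the 12 MCM genes, whose products form the helicase that opens DNA, 9 rose and none fell, with a median of 1.37 (9 and 0 without the 5 libraries). In intact buds 5 of them fell. MCM4 (Sobic.003G183700) was at 31.0, 27.4 and 23.9 CPM at 1 h and 170, 171 and 165 CPM at 3 h. The 3 libraries of each time were close together and far apart between times, a rise of 2.62 ± 0.13 (adjusted p = 6.2e-09). Intact buds averaged 284 CPM at 1 h and 168 CPM at 3 h, so that treated buds reached the intact level at 3 h, and at 6 h they held 268 against 154 CPM.

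ETG1 (Sobic.003G055600), which binds the helicase, rose 9.8-fold, from 11.5, 13.0 and 11.7 CPM at 1 h to 122, 125 and 107 CPM at 3 h (adjusted p = 4.8e-09), a log2 change of 3.29 ± 0.16. The helicase subunit MCM6 (Sobic.009G087000) and its partner MCM5 (Sobic.004G331600) rose by 2.42 ± 0.16 and 2.17 ± 0.14, and all 3 fell in intact buds, by 0.82, 0.71 and 0.68 on the log2 scale. FAS1 (Sobic.003G387600), of the complex that puts histones onto new DNA, rose from 16.1, 18.4 and 16.7 CPM at 1 h to 73.6, 69.7 and 66.8 CPM at 3 h (2.04 ± 0.16). ATXR6 (Sobic.004G020600), a histone methyltransferase active at replication, rose from 0.707, 1.01 and 0.923 CPM at 1 h to 8.11, 13.4 and 12.4 CPM at 3 h (3.68 ± 0.39). DDM1 (Sobic.002G021200), a remodeller that keeps DNA methylation in place, rose by 1.36 ± 0.10. Of 123 tested chromatin regulators, 34 rose and 18 fell, with a median change of 0.04, with 33 higher and 24 lower without the 5 libraries and 5 higher and 2 lower in intact buds, and for leaf-removed buds 9 to 11 lower without 1 h c, 1 h d, 3 h c or 3 h d. The jumonji factor Sobic.004G273100, of a family that includes histone demethylases, fell from 293, 282 and 296 CPM at 1 h to 75.1, 56.8 and 65.2 CPM at 3 h (-2.14 ± 0.25). RPA70C (Sobic.009G012500), which binds single-stranded DNA, had 78.6, 80.3 and 76.8 CPM at 1 h and 56.8, 49.6 and 46.3 CPM at 3 h and fell by 0.63 ± 0.14, with 70.8% of its reads unique.

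In exon reads, mitotic genes moved opposite to those of replication, while the intron reads of the mitosis list, given below, showed no such fall. Of 46 tested genes of mitosis, 3 rose and 21 fell, with a median change of -0.36, with 5 higher and 22 lower without the 5 libraries and 0 higher and 0 lower in intact buds, and for leaf-removed buds 5 to 6 higher without intact 1 h b, intact 1 h c, intact 1 h d, intact 3 h b or 1 h d. All 5 tested B-type cyclins, which drive entry into mitosis, fell, with a median of -1.5. CYCB1;2 (Sobic.003G328500) was at 106, 131 and 89.6 CPM at 1 h and 24.0, 25.2 and 27.2 CPM at 3 h. The groups were more than 3-fold apart, a change of -2.10 ± 0.18 on the log2 scale (adjusted p = 3.3e-07). At 1 h leaf-removed and intact buds had held like levels, 109 and 112 CPM, at 3 h intact buds kept 107 CPM, and at 6 h leaf-removed buds were back at 114 CPM. CDC20.1 (Sobic.004G270800), an activator of the complex that ends mitosis, went from 118, 128 and 96.1 CPM at 1 h to 46.2, 43.3 and 41.9 CPM at 3 h (-1.38 ± 0.12). TPX2 (Sobic.002G313000), a spindle assembly factor, and CYCB2;4 (Sobic.006G179200) changed by -1.52 ± 0.14 and -1.32 ± 0.12. BUB3.1 (Sobic.010G032400), of the spindle checkpoint, was 1 of the 3 that rose (0.44 ± 0.12).

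Core and linker histones, whose synthesis peaks in S phase, did not rise by this test. Of 51 tested histone genes, 0 rose and 7 fell, with a median change of -0.83, and the highest member changed by 1.32 without passing the test. The counts depended on which libraries were kept, with 1 higher and 38 lower without the 5 libraries, 15 lower without 1 h d, 1 higher and 15 lower without intact 1 h c, and 2 to 4 lower without 1 h b, 1 h c, 3 h b, 3 h c or intact 3 h b. With library totals 1 was higher and 5 lower, and in intact buds 3 higher and 0 lower. HIS1-3 (Sobic.010G021300), a linker histone induced by water shortage, fell from 32.7, 26.9 and 17.1 CPM at 1 h to 1.03, 2.64 and 1.96 CPM at 3 h (-3.77 ± 0.59, adjusted p = 0.00011). In intact buds it rose over the same hours, from 16.7 to 86.2 CPM.

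**Figure D3:**
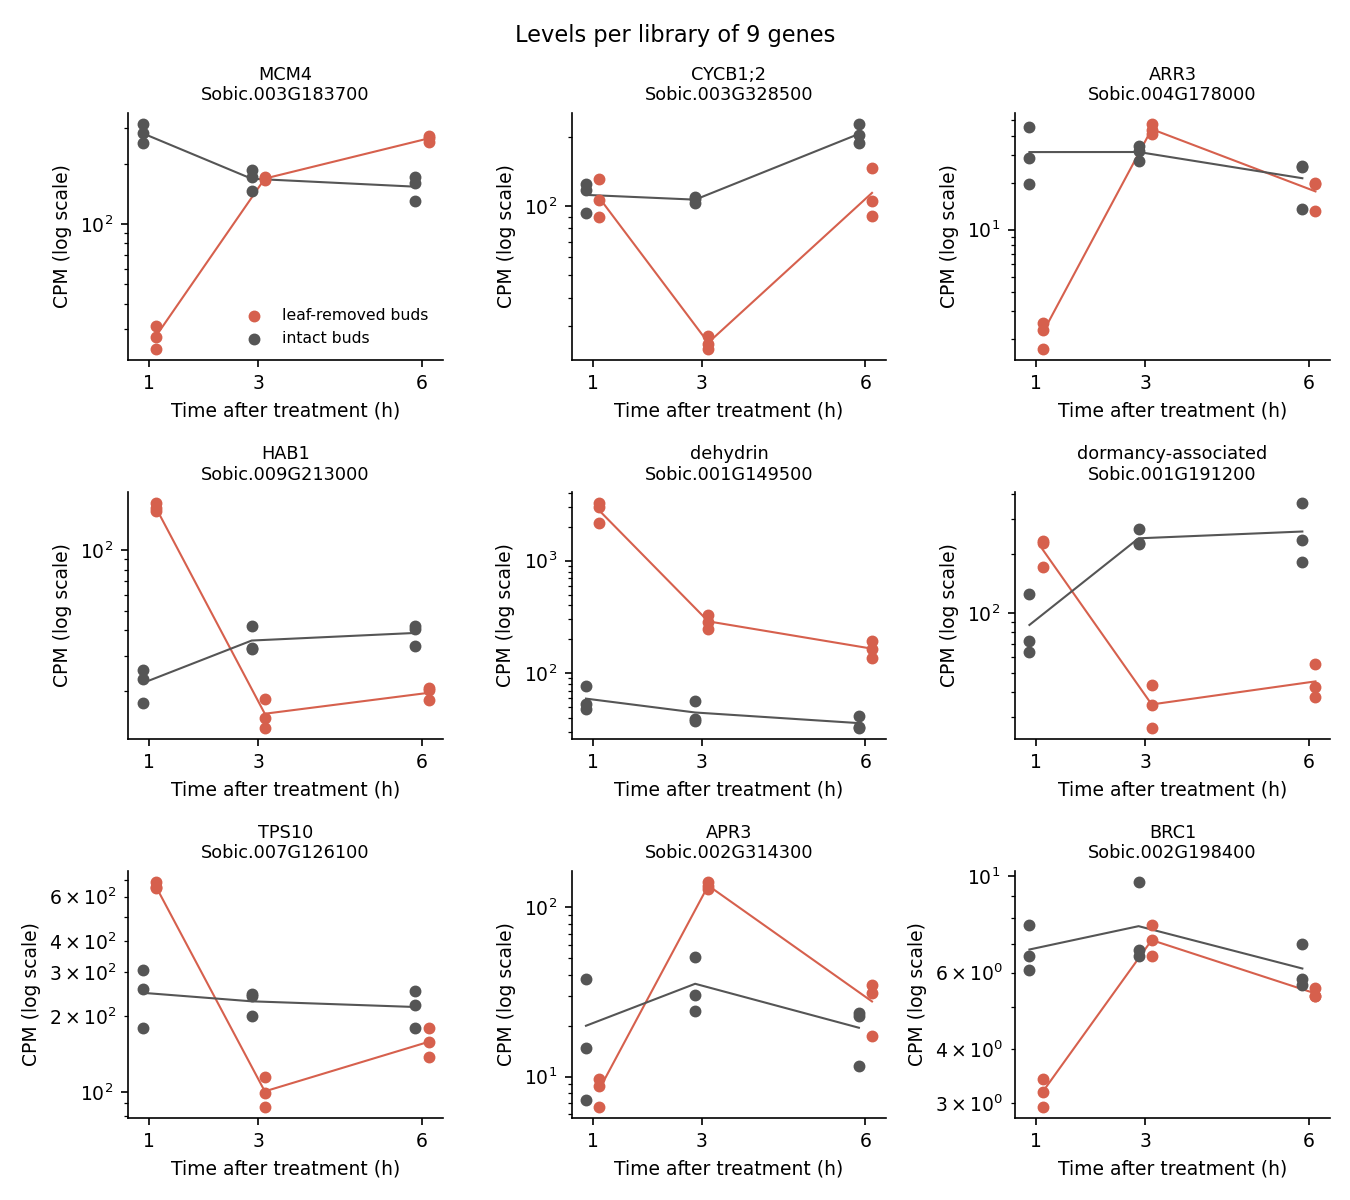
Counts per 1e6 reads (CPM, log scale) of 9 genes in each of the 18 libraries by hour after treatment (x axis), red for leaf-removed and grey for intact buds, with lines through the group means. MCM4 and ARR3 start low in leaf-removed buds and reach the intact level at 3 h, CYCB1;2 starts at the intact level and dips at 3 h, and HAB1, the dehydrin and the dormancy-associated gene fall from 1 h to 3 h.

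Genes of ribosome production rose as well. Of 36 tested genes of ribosome biogenesis, 24 rose and 1 fell, with a median change of 0.65, with 24 higher and 2 lower without the 5 libraries and 0 higher and 8 lower in intact buds. The nucleolin NUC-L2 (Sobic.001G224200), a nucleolar protein of ribosomal RNA transcription, was at 138, 139 and 146 CPM at 1 h and 331, 332 and 340 CPM at 3 h. Its replicates differed by little and the rise was 2.38-fold (1.25 ± 0.09, adjusted p = 8.5e-08); at 6 h it stood at 522 against 379 CPM in intact buds. An rRNA processing protein (Sobic.003G109900) rose by 1.14 ± 0.11, where it fell in intact buds by 0.72. RRP4 (Sobic.010G013400), of the exosome that trims RNA, was the member that fell (-0.87 ± 0.20). Of 272 tested ribosomal protein genes, 76 rose and 8 fell, with a median change of 0.24, with 89 higher and 19 lower without the 5 libraries and 2 higher and 29 lower in intact buds, and for leaf-removed buds 5 lower without 1 h c. A ribosomal protein S5 gene (Sobic.004G002500) had 44.8, 51.0 and 48.3 CPM at 1 h and 96.3, 93.2 and 88.8 CPM at 3 h and rose by 0.95 ± 0.10, and an L12/ClpS family gene (Sobic.007G135800) fell by 0.88 ± 0.18. Of 82 tested translation factors, 30 rose and 9 fell, with a median change of 0.27, with 37 higher and 9 lower without the 5 libraries and 3 higher and 21 lower in intact buds. FUG1 (Sobic.009G170200), an initiation factor of the plastid, rose by 1.05 ± 0.11, and an initiation factor of the SUI1 family (Sobic.002G324200) fell from 1160, 1370 and 963 CPM at 1 h to 301, 371 and 330 CPM at 3 h (-1.81 ± 0.20).

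Genes of sugar use fell more often than they rose. Of 72 tested genes of sugar use and starvation, 4 rose and 28 fell, with a median change of -0.56, with 3 higher and 35 lower without the 5 libraries and 5 higher and 1 lower in intact buds. Among 10 tested trehalose-phosphate synthase genes 7 fell and 1 rose (1 higher and 7 lower without the 5 libraries), the riser being annotated as the active enzyme. TPS1 (Sobic.009G200200), which makes the sugar signal trehalose-6-phosphate, was at 3.18, 2.17 and 1.29 CPM at 1 h and 19.5, 19.3 and 19.6 CPM at 3 h, a rise of 3.14 ± 0.29 (adjusted p = 6.6e-07). The class II gene TPS10 (Sobic.007G126100), of a group whose members lack clear enzyme activity and many of which rise under starvation, was at 653, 685 and 647 CPM at 1 h and 115, 87.4 and 99.2 CPM at 3 h. It fell in all libraries to 15.2% of the 1 h level (-2.72 ± 0.19), below the 230 CPM of intact buds. TPS7 (Sobic.003G296000) and TPS6 (Sobic.002G194700), of the same class, changed by -2.32 ± 0.15 and -1.70 ± 0.22.

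A beta-amylase (BAM9, Sobic.001G372100), of the family that breaks down starch, had 193, 211 and 77.1 CPM at 1 h and 1.26, 5.21 and 6.73 CPM at 3 h, among the steepest falls (-5.20 ± 0.73). HXK1 (Sobic.009G069800), hexokinase and glucose sensor, fell from 225, 227 and 127 CPM at 1 h to 16.0, 18.1 and 27.8 CPM at 3 h (-3.22 ± 0.28). GDH2 (Sobic.006G165400), glutamate dehydrogenase, which feeds amino acid carbon into respiration, fell to 11.8% (-3.08 ± 0.15, adjusted p = 4.8e-09), with 61.1% of its reads unique. A pair of nitrogen assimilation genes rose. Nitrate reductase NIA1 (Sobic.007G153900) rose from 6.01, 5.55 and 3.47 CPM at 1 h to 20.1, 21.9 and 27.2 CPM at 3 h (2.21 ± 0.26), and plastid glutamine synthetase GS2 (Sobic.006G249400) by 1.00 ± 0.10. Of 85 tested genes of phosphate and nitrogen, 20 rose and 13 fell, with a median change of 0.08, with 22 higher and 20 lower without the 5 libraries and 14 higher and 5 lower in intact buds, and the median was -0.05 without the 5 libraries.

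Wound-related transcripts fell more often than they rose. Of 36 tested genes of jasmonate synthesis, 2 rose and 14 fell, with a median change of -0.49, with 6 higher and 19 lower without the 5 libraries and 1 higher and 1 lower in intact buds, and for leaf-removed buds 1 to 4 higher without 3 h b or 3 h d. The list's summed level did not fall alike, at 29110, 29840 and 18590 CPM at 1 h and 17210, 30870 and 39430 CPM at 3 h. Most of that sum was held by genes annotated LOX1 or LOX5, 9-lipoxygenases, which summed to 24620, 25510 and 15390 CPM at 1 h and 15000, 27400 and 35390 CPM at 3 h. The list's sum is therefore no measure of jasmonate synthesis as a whole. OPR3 (Sobic.007G151100), which reduces the jasmonate precursor, had 157, 152 and 89.6 CPM at 1 h and 40.6, 46.5 and 58.8 CPM at 3 h, a change of -1.45 ± 0.19. The 3 h level was still above the 20.5 CPM of intact buds. ACX2 (Sobic.005G181000), of peroxisomal beta-oxidation, fell from 120, 149 and 128 CPM at 1 h to 25.8, 20.3 and 25.7 CPM at 3 h (-2.46 ± 0.16, adjusted p = 3.2e-08), and ACX4 (Sobic.009G057300), of the same family, rose by 0.58 ± 0.16. Of 19 tested genes of jasmonate signalling, 1 rose and 9 fell, with a median change of -0.78, with 1 higher and 11 lower without the 5 libraries and 1 higher and 3 lower in intact buds, and for leaf-removed buds 2 higher without 3 h b and 5 lower without 1 h c. Of 15 JAZ repressors, early targets of jasmonate, 8 fell and 1 rose, with a median change of -1.05, with 1 higher and 9 lower without the 5 libraries and 0 higher and 3 lower in intact buds, and for leaf-removed buds 4 to 5 lower without 1 h b or 1 h c. Their median in intact buds was -0.64, and by the test of the difference the change was more positive in leaf-removed buds for 3 of them and more negative for 0. JAZ1 (Sobic.001G482700) was at 171, 199 and 127 CPM at 1 h and 34.4, 57.8 and 82.3 CPM at 3 h, against 1.91 CPM at 1 h and 1.05 CPM at 3 h in intact buds. It fell (-1.51 ± 0.33, adjusted p = 0.0018) with a wide spread at 3 h, and was at 31.7 CPM at 6 h. A second JAZ1 gene (Sobic.001G343900) fell by 1.06 ± 0.25, JAZ3 (Sobic.007G132700) rose by 0.67 ± 0.12, and COI1 (Sobic.009G157200), the jasmonate receptor, fell by 0.57 ± 0.10.

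Calcium and touch genes fell in number. Of 112 tested genes, 7 rose and 42 fell, with a median change of -0.50, with 11 higher and 48 lower without the 5 libraries and 4 higher and 1 lower in intact buds. CRCK3 (Sobic.006G138500), a calmodulin-binding receptor-like kinase, had 104, 84.5 and 84.6 CPM at 1 h and 15.3, 15.3 and 11.8 CPM at 3 h and fell by 2.69 ± 0.21. A calmodulin-binding transcription regulator (Sobic.002G306000) fell from 826, 801 and 732 CPM at 1 h to 237, 200 and 191 CPM at 3 h (-1.91 ± 0.16). Of 73 tested NAC factors, 4 rose and 21 fell, with a median change of -0.41, with 5 higher and 24 lower without the 5 libraries and 1 higher and 2 lower in intact buds, and for leaf-removed buds 7 higher without intact 1 h b or 3 h b. NAC025 (Sobic.008G021800) fell from 577, 763 and 517 CPM at 1 h to 70.0, 105 and 126 CPM at 3 h, to the 109 CPM of intact buds (-2.62 ± 0.23). Of 95 tested AP2/ERF factors, 10 rose and 22 fell, with a median change of -0.49, with 12 higher and 28 lower without the 5 libraries and 1 higher and 1 lower in intact buds, and for leaf-removed buds 34 lower without 3 h d. RAP2.12 (Sobic.010G071700), a factor of the low-oxygen response, fell from 391, 389 and 391 CPM at 1 h to 144, 158 and 177 CPM at 3 h (-1.29 ± 0.12). Of 65 tested WRKY factors, 9 rose and 12 fell, with a median change of -0.23, with 9 higher and 14 lower without the 5 libraries and 0 higher and 1 lower in intact buds. With library totals their balance turned to 12 higher and 11 lower. In the main test neither share of WRKY factors lay above that over all genes, 17.7% higher and 19.4% lower. WRKY28 (Sobic.009G247300) fell by 3.14 ± 0.44 and WRKY21 (Sobic.001G095500) rose by 1.48 ± 0.17.

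Of 39 small heat shock proteins of the HSP20 family, which hold unfolding proteins, 20 fell and 3 rose (4 higher and 23 lower without the 5 libraries, and for leaf-removed buds 1 higher without 1 h b or 3 h c). In intact buds 0 were higher and 5 lower, where 3.06% and 3.64% of all genes were called. The median was -0.96 in leaf-removed and -0.36 in intact buds. By the test of the difference the change was more negative in leaf-removed buds for 10 of them and more positive for 3. The heat shock factor HSFC1 (Sobic.010G164400) fell from 86.0, 97.3 and 69.0 CPM at 1 h to 6.69, 10.5 and 12.7 CPM at 3 h (-3.08 ± 0.25, adjusted p = 2.4e-07), while it rose in intact buds by 1.17 ± 0.24. FKBP65 (Sobic.010G134700), a prolyl isomerase induced by heat, fell by 1.82 ± 0.12. It fell in intact buds too, with a change of -1.20 ± 0.11, and the changes differed by -0.62 ± 0.16 (adjusted p = 0.0094).

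Gibberellin 2-oxidases, which inactivate gibberellin, fell. Of 10 tested, 6 fell and none rose, with a median of -1.62 (0 higher and 6 lower without the 5 libraries, and for leaf-removed buds 1 higher without 3 h b). In intact buds 0 were higher and 0 lower, with a median of -0.58. By the test of the difference the change was more negative in leaf-removed buds for 2 of the 10 and more positive for 0. GA2OX2 (Sobic.009G196300) was at 133, 133 and 72.3 CPM at 1 h and 10.4, 19.0 and 12.7 CPM at 3 h, and it was close to 0 in intact buds, at 0.865 CPM at 1 h and 0.331 CPM at 3 h. The change was -3.01 ± 0.47 (adjusted p = 0.00011), and leaf-removed buds at 6 h held 7.73 CPM. For GA2OX2 the difference from the change in intact buds did not pass the test. GA2OX1 (Sobic.009G077500) fell from 16.5, 14.7 and 7.34 CPM at 1 h to 0.42, 0.857 and 0.982 CPM at 3 h (-4.09 ± 0.51). Of 102 tested genes of the auxin response, 31 rose and 15 fell, with a median change of 0.31, with 42 higher and 16 lower without the 5 libraries and 2 higher and 4 lower in intact buds, and for leaf-removed buds 8 to 9 lower without 1 h c, 3 h b or 3 h c. The auxin response factors annotated ARF3 (Sobic.009G196900 and Sobic.003G251700), which pattern lateral organs, rose by 1.86 ± 0.12 and 1.80 ± 0.18. Of 26 Aux/IAA repressors, short-lived proteins encoded by early auxin genes, 9 rose and 3 fell, with 13 higher and 4 lower without the 5 libraries and 0 higher and 4 lower in intact buds, and for leaf-removed buds 14 higher without intact 1 h c. IAA16 (Sobic.008G156900) rose by 1.07 ± 0.11 and a second IAA16 gene (Sobic.001G094800) fell by 1.16 ± 0.13.

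Of 35 tested genes of auxin transport, 10 rose and 5 fell, with a median change of 0.52, with 12 higher and 7 lower without the 5 libraries and 0 higher and 0 lower in intact buds, and for leaf-removed buds 2 to 3 lower without 1 h b, 1 h c, 3 h b or 3 h c. The efflux carrier PIN4 (Sobic.005G025900) rose from 4.79, 4.01 and 3.73 CPM at 1 h to 21.0, 34.4 and 34.8 CPM at 3 h (2.85 ± 0.28, adjusted p = 1.6e-06), and PGP21 (Sobic.003G139300), an ABC transporter of auxin, fell by 1.45 ± 0.13. Of 25 tested genes of ethylene, 4 rose and 11 fell, with a median change of -0.53, with 5 higher and 10 lower without the 5 libraries and 0 higher and 0 lower in intact buds. ACO4 (Sobic.004G313100), which forms ethylene, had 342, 358 and 172 CPM at 1 h and 60.2, 91.1 and 115 CPM at 3 h and fell by 1.71 ± 0.34. EBF1 (Sobic.010G186200), which removes the ethylene factor EIN3, fell by 1.57 ± 0.21.

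Of 18 tested clock genes, 3 rose and 8 fell, with a median change of -0.42, with 3 higher and 9 lower without the 5 libraries and 4 higher and 1 lower in intact buds. The median in intact buds was 0.23, and by the test of the difference the change was more negative in leaf-removed buds for 9 of the 18 and more positive for 0. LHY (Sobic.007G047400), a morning factor, was at 1200, 1300 and 1330 CPM at 1 h and 897, 701 and 661 CPM at 3 h, a change of -0.76 ± 0.13. In intact buds it fell by 0.85 ± 0.13, and the 2 changes did not differ by test (adjusted p = 0.78, a difference of 0.08 ± 0.18). GI (Sobic.003G040900) rose by 0.50 ± 0.11 in leaf-removed and by 1.33 ± 0.11 in intact buds, and these rises differed (adjusted p = 0.00094). ELF3 (Sobic.009G257300), of the evening complex, changed in leaf-removed buds by -1.34 ± 0.16, while in intact buds 0.21 ± 0.15 did not pass (adjusted p = 0.46). Of 48 tested genes of light signalling, 2 rose and 20 fell, with a median change of -0.56, with 3 higher and 24 lower without the 5 libraries and 6 higher and 0 lower in intact buds. The B-box factor DBB3 (Sobic.010G041700) fell by 1.07 ± 0.10.

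Lists that mark leaf, vascular and epidermal tissue were followed beside these results, where 17.7% of all genes rose and 19.4% fell. Of 59 tested photosynthesis genes, 11 rose and 5 fell, with a median change of 0.29, with 24 higher and 6 lower without the 5 libraries and 9 higher and 1 lower in intact buds, and for leaf-removed buds 17 higher without intact 1 h c or 3 h b. Their median in intact buds was higher, 0.80, and by the test of the difference the change was more negative in leaf-removed buds for 8 of them and more positive for 0. Their summed level was 4221 to 6373 CPM at 1 h and 4613 to 7722 CPM at 3 h, lowest in both groups in the library that stands apart, and 3 of 63 had no read in the 6 libraries. CP24 (Sobic.006G264201), a light-harvesting protein, rose by 1.35 ± 0.18 in leaf-removed and 0.89 ± 0.17 in intact buds, a difference that did not pass (adjusted p = 0.18), and RBCS1A rose by 0.52 ± 0.14. Of 59 tested genes of the secondary wall, a feature of vascular tissue, 5 rose and 9 fell, with a median change of -0.36, with 10 higher and 15 lower without the 5 libraries and 1 higher and 0 lower in intact buds, and for leaf-removed buds 3 to 10 higher without 3 h b or 3 h d and 0 to 5 lower without 1 h b, 1 h c, 3 h b or 3 h c. With library totals 7 were higher and 7 lower, and its summed level was 1077 to 1382 CPM at 1 h and 1016 to 1341 CPM at 3 h. Of 62 tested genes of cuticle and lipid transfer, made in the epidermis, 16 rose and 5 fell, with a median change of 0.34, with 25 higher and 7 lower without the 5 libraries and 0 higher and 1 lower in intact buds, and for leaf-removed buds 1 to 8 lower without 1 h b, 1 h c, 3 h c or 3 h d, and its summed level was 3148 to 3677 CPM at 1 h and 3445 to 4987 CPM at 3 h. CER1 (Sobic.001G222700) and CER6 (Sobic.010G107200), enzymes of wax synthesis, rose by 1.62 ± 0.23 and 1.84 ± 0.23. The part of tissue make-up in the changes above was not tested.

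Intron reads, which can come from RNA not yet spliced, give a second readout of the same libraries. Other sources of such reads were not tested, and their share was highest in the treated libraries that stand apart. Of 14725 genes with enough of them, 1154 were higher (7.84%) and 1217 lower (8.26%) at 3 h. Across 14465 genes tested in both, the exon and intron changes correlated with Pearson's r of 0.737, as a description over genes that share libraries and are not replicates. Of the genes that rose in exon reads and had an intron test, 26.6% also rose in intron reads and 0.731% fell, and of those that fell, 27.9% also fell and 0.658% rose. Most named genes were picked by their exon change or exon p in these same libraries, so a like direction in intron reads is no separate support. Of the 104 genes named here that had an intron test, 73 were called in it, 72 of them in the direction of the exon change. The exception was RPA70C (Sobic.009G012500), whose exon reads changed by -0.63 ± 0.14 and whose intron reads changed by 1.46 ± 0.42.

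Over the genes that fell in exon reads and had an intron test, the median change was -0.83 in exon and -0.68 in intron reads, and over those that rose it was 0.80 and 0.77. Single genes stood away from this, and those that follow were chosen after their values were seen. RAP2.12 (Sobic.010G071700) changed by -1.29 ± 0.12 in exon and -3.40 ± 0.45 in intron reads, and XERO1 (Sobic.009G116700) by -1.82 ± 0.52 and -6.36 ± 0.94. ACX2 (Sobic.005G181000) changed by -2.46 ± 0.16 and -3.74 ± 0.40, and GDH2 (Sobic.006G165400) by -3.08 ± 0.15 and -4.34 ± 0.42. MCM6 (Sobic.009G087000) rose by 2.42 ± 0.16 in exon and 4.11 ± 0.48 in intron reads. For CDC20.1 (Sobic.004G270800) the exon change of -1.38 ± 0.12 stood beside an intron change of -0.12 ± 0.24 that did not pass (adjusted p = 0.79). Over the mitosis list, 2 of 43 genes tested in intron reads were higher and 1 lower, with a median of 0.08. Over all genes these shares were 7.84% and 8.26%. The 5 B-type cyclins had an intron median of -1.25, with 0 higher and 1 lower. Of 57 replication genes, 27 were higher and 0 lower in intron reads, with a median of 1.3. Whether the 2 changes of a gene differ was not tested.

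**Figure D4:**
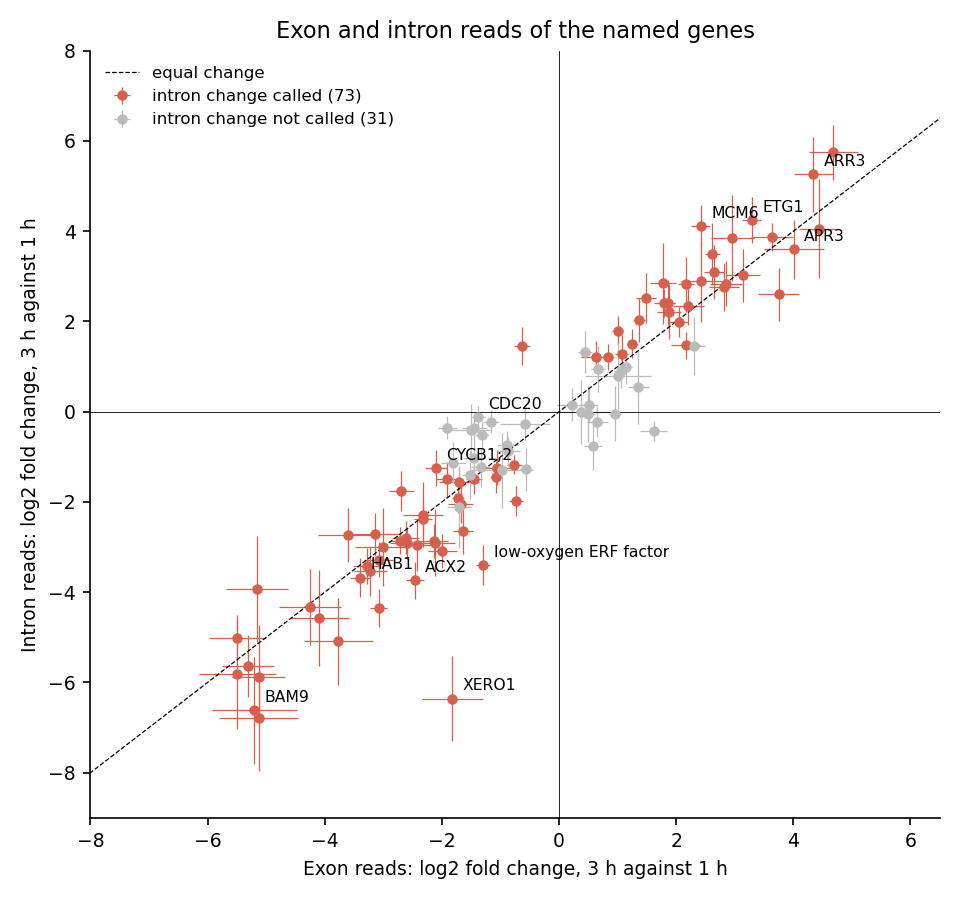
Log2 fold change of 3 h over 1 h in exon reads (x axis) and intron reads (y axis) for the 104 named genes with an intron test, with standard errors, red where the intron change was called and grey where it was not, and a dashed line where the changes are equal. ARR3 and ETG1 lie at the upper right, BAM9 and HAB1 at the lower left, and XERO1 and the low-oxygen ERF factor RAP2.12 below the line.

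A few genes went from silence or to it. In 3 genes the 1 h libraries held at most 3 reads in all and each 3 h library at least 10, and in 25 genes the reverse held. A cytochrome P450 annotated CYP75B1, a flavonoid hydroxylase (Sobic.007G149000), had 0 reads at 1 h and 44 at 3 h over the 3 libraries. A DUF1677 protein (Sobic.010G165000) had 2 and 67 reads. CYP79A2 (Sobic.001G187600), of the family that turns amino acids into oximes, had 96 reads at 1 h and 0 at 3 h. ABCG40 (Sobic.003G215400), an importer of abscisic acid, had 159 and 2 reads, and WRKY40 (Sobic.010G209200) had 89 and 3. All 5 were called, and ABCG40 lost its call with DESeq2 (adjusted p = 0.32, where the range over the alternatives was 5.6e-06 to 0.32). Genes without any annotation made up 542 of the rises (14.0%) and 740 of the falls (17.4%), against 19.5% of all genes tested.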

How the data were processed

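RNA of the 18 libraries was extracted with Trizol and sequenced as TruSeq libraries on an Illumina HiSeq with 125 bp reads, per the labels' protocols. The deposited table holds, per the file headers, counts of total exon reads, unique exon reads and intron reads per gene and library, and RPKM values that the authors computed from counts and exon length. The deposited exon length (another number, in bases) was used for nothing else. The aligner, its version, the genome build and the strand setting are not given in the sources used here, and total exon reads include reads that match several places. Sequences and positions were not used here.

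Total exon counts were tested by the quasi-likelihood F test of edgeR 4.0.16 under R 4.3.3. TMM factors, filterByExpr at its defaults and 1 fit of 6 groups over 18 libraries (12 residual degrees of freedom) were used. Of 34211 genes 21852 were tested, and the biological coefficient of variation was 24.9%. Contrasts were leaf-removed 3 h minus 1 h, intact 3 h minus 1 h, and their difference. Intron counts were fitted alike with factors of their own. CPM are counts per 1e6 reads with TMM factors. RPKM, which were not scaled by these TMM factors, served to compare levels between genes and to give the levels of BP, REV and RBCS1A at 1 h and 3 h. P-values were adjusted by Benjamini-Hochberg over all tested genes and called under 0.05. Exon reads of all 18 libraries ranged from 21.4 to 45.8 M (1e6), 97.0% to 97.6% of them unique. Reads carry no molecular identifiers, so counts give counting error only.

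The comparison, the gene lists and the rules were chosen with earlier results of these data known. The 39 lists and 28 families were taken by words in the Arabidopsis annotation, and that wording was trimmed after the annotation, not the values, had been read. Named genes were the 12 highest and 12 lowest called log2 changes among annotated genes with groups that do not overlap, a sum of 10 or more reads where lower and a mean of 5 or more CPM where higher, up to 3 called members per list in the leading direction and 1 in the other by p, bud and hormone genes whatever their result, and genes near 0 in a group. The text gives a part of these. Alternatives tried were library totals, DESeq2 1.42.0 both as a test and for its size factors, a looser and a stricter filter, limma 3.58.1 voom, the compared groups alone, a replicate block, unique reads, the intron share as a covariate, a minimum of 1.5-fold, each library left out and 5 libraries left out together. Tables and figures used Python 3.11.15, numpy 2.4.6, pandas 2.3.3 and matplotlib 3.10.9.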

Additional observations from a re-analysis of the deposited data

Results flagged for a closer look

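The change from 1 h to 3 h differed between leaf-removed and intact buds by the test of the difference itself (edgeR, Benjamini-Hochberg adjusted p under 0.05) for 2934 genes with a more positive and 2886 with a more negative change in leaf-removed buds. The values that follow are log2 differences, the change in leaf-removed buds minus the change in intact buds, 3 libraries in each of the 4 groups, for the genes named above that passed this test. Among the named genes that did not pass it were RGLG1, TPS21, GSTU17, the alpha/beta-hydrolase, WRKY28 and GA2OX2. That does not show their changes to be equal in leaf-removed and intact buds.

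For the steepest rises and falls it was 5.94 for the Dof factor, 5.38 for the bHLH factor, 3.86 for the AP2/ERF factor, 4.24 for the DUF3049 protein, 3.18 for APR3, 2.79 for the P-loop hydrolase and 4.50 for EGL3. Further such genes gave 5.89 for the RING finger protein, -6.90 for the DUF584 protein, -6.08 for the pyruvate decarboxylase, -4.41 for BT2, -4.71 for PCR2, -6.05 for OXS3 and -6.03 for the homeodomain-like protein. Cytokinin genes gave 4.34 for ARR3, 3.70 for ARR4, 2.36 for CKX6, 1.87 for the second ARR3 gene and 2.14 for ARR6. Also of cytokinin were -1.51 for the third ARR3 gene, 2.42 for ARR12, 2.27 for CKX1 and 1.99 for the second CKX6 gene. Among replication and chromatin genes it was 3.91 for ATXR6, 4.11 for ETG1, 3.37 for MCM4, 2.84 for MCM5 and 3.13 for MCM6. And it came to -0.72 for RPA70C, 2.50 for FAS1, 1.68 for DDM1 and -2.35 for the jumonji factor. In abscisic acid genes the difference came to -7.27 for ATHB-7, -4.10 for HAB1, -1.82 for the second HAB1 gene, -4.86 for HAI3, -2.87 for the dehydrin and -3.53 for COR47. Others of this hormone gave -2.83 for XERO1, -2.36 for PYL8, -3.34 for CYP707A4, -1.21 for ZEP, -4.40 for NCED9 and -6.85 for the second NCED9 gene. Genes of sugar and nitrogen use gave -5.41 for BAM9, -2.24 for TPS7, -2.60 for TPS10, -2.69 for TPS6 and 2.72 for TPS1. To these were added -2.63 for HXK1, -2.81 for GDH2, 2.89 for NIA1 and 0.56 for GS2. Mitotic genes and a histone gave -2.03 for CYCB1;2, -1.18 for CYCB2;4, -1.29 for CDC20, -1.51 for TPX2 and -6.14 for HIS1-3.

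Ribosome and translation genes gave 1.40 for NUC-L2, 1.86 for the rRNA processing protein, 1.43 for the ribosomal protein S5, -1.29 for the ribosomal protein L12, 0.51 for FUG1 and -1.70 for the SUI1 factor. Wound-related genes gave -3.05 for ACX2, -1.54 for OPR3, 1.12 for JAZ3, -0.90 for COI1, -2.51 for CRCK3 and -1.57 for the calmodulin-binding regulator. Among the remaining ones were 1.40 for WRKY21, -2.62 for NAC025, -1.64 for the low-oxygen ERF factor, -4.25 for HSFC1 and -0.62 for FKBP65. Hormone genes of gibberellin, auxin and ethylene gave -2.94 for GA2OX1, 1.73 for ARF3, 1.96 for the second ARF3 gene, 1.27 for IAA16 and -0.62 for the second IAA16 gene. With them stood 3.58 for PIN4, -1.64 for PGP21, -1.91 for EBF1 and -2.12 for ACO4. Bud and branching genes gave -3.49 for the dormancy-associated gene Sobic.001G377000, -4.06 for the dormancy-associated gene Sobic.001G191200, -2.38 for the dormancy-associated gene Sobic.007G148200, -3.71 for the dormancy-associated gene Sobic.002G213800, 0.98 for BRC1 and -1.11 for MAX2. Identity and growth factors gave 2.82 for CYP711A1, 2.50 for TCP4, 1.61 for AS2, 0.95 for REV and -1.60 for BLH6. Clock and light genes gave -0.84 for GI, -1.56 for ELF3 and -1.34 for DBB3. Wax and wall genes gave 1.46 for CER6, 1.74 for CER1, -5.85 for EXLA1 and 2.99 for EXPA1. The alternative oxidase gave -1.65 for AOX. Genes near 0 at 1 h gave 5.76 for CYP75B1 and 7.16 for the DUF1677 protein.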

How the results depend on the processing

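Of the 126 named genes called, 107 kept their call under all alternatives that tested them, 126 kept it without the 5 libraries, and 0 changed direction. The 5 were picked because they deviate from their groups, so keeping a call without them is a weak check. Most losses came with the 1.5-fold minimum, by its construction. The counts for leaf-removed buds were 1412 higher and 1752 lower under that minimum, and 3536 to 4503 and 3065 to 4222 with a library left out. For intact buds they were 180 and 269 with only the compared groups, 1663 and 1781 with the intron covariate, 27 and 30 under the 1.5-fold minimum, 1076 and 1342 with DESeq2, 1150 and 1394 without the 5 libraries, and 213 to 741 and 292 to 1134 with a library left out, lowest without intact 3 h replicate a. For the difference they were 1251 and 1229 under the 1.5-fold minimum, 4517 lower with the covariate, and 2602 to 3474 and 1970 to 2822 with a library left out. For intron reads they were 1793 and 777 with library totals, 485 and 446 with the exon factors, 834 and 1038 without the 5 libraries, and 615 to 1016 and 806 to 1051 with a library left out. With the replicate letter as a block, 2790 rose and 3038 fell in leaf-removed buds, 43 and 65 in intact buds, 1586 and 1568 for the difference, and 664 and 805 in intron reads, and 3 named genes lost their call, XERO1, NCED9 (Sobic.001G155300) and CCD4. The labels do not say whether the letters pair the libraries. Deviations of the same letter correlated by -0.289 (b), 0.261 (c) and -0.458 (d), and not every library correlated best with its own letter. The highest value, 0.521, was that of 1 h d with 3 h b, the libraries that stand apart. Deviations from means of 3 libraries that include these cannot decide whether the letters pair. The cause of the other moves was not tested. Of 134 counts of list members, 98 stayed within 1.5 times without the 5 libraries, and the leading direction of 8 of 67 lists and families turned under another scaling. Depth limits genes with few reads, and intron reads are few.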

Other observations

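Wall genes went both ways, beside 17.7% higher and 19.4% lower over all genes, and single members moved far in either direction. The counts of wall genes and of mitochondrial respiration below did not lie clearly above these shares. Of 55 tested genes of wall loosening 7 rose and 11 fell, with 15 higher and 17 lower without the 5 libraries and 1 higher and 3 lower in intact buds, and for leaf-removed buds 12 higher without 3 h b and 7 lower without 1 h b. With library totals 10 rose and 10 fell. The expansin-like gene EXLA1 (Sobic.001G311000) was at 47.0, 45.7 and 21.3 CPM at 1 h and 0.646, 2.68 and 2.68 CPM at 3 h, without overlap, a change of -4.25 ± 0.53 on the log2 scale, while the expansin EXPA1 (Sobic.003G338801), a protein that loosens growing walls, rose from 1.77, 2.51 and 1.25 CPM at 1 h to 12.4, 16.6 and 13.6 CPM at 3 h (2.96 ± 0.37). Mitochondrial respiration held 2 that rose and 8 that fell among 56 tested, with 4 higher and 11 lower without the 5 libraries and 0 higher and 7 lower in intact buds, and for leaf-removed buds 4 higher without intact 1 h c, 1 h d or 3 h c and 4 to 5 lower without intact 1 h b, intact 1 h d, intact 3 h a, intact 3 h b, 1 h b, 1 h c, 1 h d or 3 h c. With library totals these were 6 and 4. The alternative oxidase (AOX, Sobic.006G258700), which bypasses part of the respiratory chain, went from 51.4, 56.0 and 53.8 CPM at 1 h to 19.4, 14.8 and 17.6 CPM at 3 h (-1.64 ± 0.17), with 83.5% of its reads unique.

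Autophagy genes fell in 6 of 19 cases and rose in none, with 0 higher and 7 lower without the 5 libraries and 0 higher and 0 lower in intact buds. Proteasome genes rose in 10 and fell in 3 of 61 cases, beside 17.7% and 19.4% over all genes, with 7 higher and 9 lower without the 5 libraries and 0 higher and 4 lower in intact buds, and for leaf-removed buds 0 to 1 lower without intact 1 h b, intact 1 h c, intact 1 h d, intact 3 h a, intact 3 h b, 1 h b, 1 h c, 1 h d, 3 h c or 3 h d, so that the balance turned without the 5 libraries. Phenylpropanoid synthesis held 3 that rose and 13 that fell among 46 tested (median -0.48; 5 higher and 18 lower without the 5 libraries). Flavonoid synthesis held 4 that rose and 8 that fell among 29 tested (median -0.61; 4 higher and 10 lower without the 5 libraries), and for leaf-removed buds 5 lower without 1 h c. Peroxidases and glutathione transferases held 8 that rose and 32 that fell among 140 tested (median -0.38; 17 higher and 49 lower without the 5 libraries), and for leaf-removed buds 14 higher without 3 h b and 16 to 21 lower without 1 h b, 1 h c, 3 h b or 3 h c. Defence proteins held 8 that rose and 16 that fell among 60 tested (median -0.37; 10 higher and 21 lower without the 5 libraries), and for leaf-removed buds 3 higher without 3 h d and 7 to 10 lower without 1 h b or 1 h c. Aquaporins held 2 that rose and 5 that fell among 27 tested (median -0.42, with 3 higher and 9 lower without the 5 libraries), and for leaf-removed buds 1 higher without 1 h c, 1 h d or 3 h d and 2 to 3 lower without 1 h b, 3 h c or 3 h d. Neither share of aquaporins in the main test lay above that over all genes, 17.7% higher and 19.4% lower.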
